A study of Mus musculus with 16 samples.

Results

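The genes described are 10 members of the semaphorin signalling system: the ligands Sema3a, Sema3c, Sema3d, Sema3e and Sema6d, the receptors Plxna2, Plxna4 and Plxnd1, and the co-receptors Nrp1 and Nrp2. They were picked by gene symbol from a table of 37991 genes, and all 10 were among the 14612 genes with enough counts to be tested. The table holds bulk RNA sequencing counts from mouse embryonic hearts at E10.5, in midgestation. Its 16 libraries comprise 4 each of Tbx5 del/CreERT2, in which both copies of the T-box transcription factor gene Tbx5 are altered, of Tbx5 del/+, of Tbx5 CreERT2/+, and of wild type (WT). The labels name the alleles only as del and CreERT2, mention no treatment, and do not tie libraries to embryos or litters, so every p-value below measures the spread between these libraries, which may be partly technical.

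Semaphorins are guidance cues, either secreted (class 3) or anchored in the membrane (class 6 among others). Most class 3 members bind a neuropilin, which holds them to a plexin, and the plexin carries the signal into the cell by acting on small GTPases of the Ras family. In the mouse heart the system is known for guiding cardiac neural crest into the outflow tract and for patterning vessels, and neuropilins also serve as co-receptors for VEGF.

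Total counts ran from 21436305 to 42731841 a library. Reads of mitochondrial ribosomal RNA took 42.3% of the counts in CreERT2/+ 3, 53.6% in del/CreERT2 3, 60.6% in WT 4 and 62.3% to 78.3% in the other 13, and several of the genes below stood high in the first 3 of these. Levels are given as CPM, the count of a gene divided by its library's TMM-scaled total. Summed heart muscle markers ran from 17425 to 20630 CPM over all libraries, endocardial and endothelial markers from 181.6 to 239.6 CPM, and no gene of the 10 marker lists was at 0 in all 16 libraries. Tbx5 itself averaged 22.4 ± 1.79 CPM in del/CreERT2, 31.1 ± 7.17 in del/+, 24.4 ± 9.90 in CreERT2/+ and 19.7 ± 5.24 in WT (SD, n = 4 each), and since these counts cover the full gene model they are no check of the alleles.

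Promoter sequences were available from RefSeq (GRCm38.p6) for 9 of the 10 genes, in 10 windows of the 250 bases before an annotated start, since Sema6d has 2 starts and Plxna4 had no entry. The windows were searched on both strands for AGGTGT and GGTGTG, the core letters bound by T-box factors, which overlap each other in all but their outer letters. Of the 10 windows, 3 hold such letters, beside 22.2% of 32851 windows of the same length over all genes (11.8% hold AGGTGT and 16.3% GGTGTG). These 3 are shown because they are the windows with a match. Capitals mark the matched letters, which stand as their reverse complement ACACCT or CACACC where the match lies on the other strand. The windows lie on the plus strand at chr5:12382916-12383165 for Sema3d, chr2:124089719-124089968 for the upstream start of Sema6d, and chr1:62703067-62703284 for Nrp2, which is cut to the 218 bases before the first annotated exon.
Sema3d: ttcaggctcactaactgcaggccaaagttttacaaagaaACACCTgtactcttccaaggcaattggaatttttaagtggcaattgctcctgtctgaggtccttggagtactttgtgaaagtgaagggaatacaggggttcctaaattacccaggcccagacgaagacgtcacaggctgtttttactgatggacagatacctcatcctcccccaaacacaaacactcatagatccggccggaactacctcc
Sema6d: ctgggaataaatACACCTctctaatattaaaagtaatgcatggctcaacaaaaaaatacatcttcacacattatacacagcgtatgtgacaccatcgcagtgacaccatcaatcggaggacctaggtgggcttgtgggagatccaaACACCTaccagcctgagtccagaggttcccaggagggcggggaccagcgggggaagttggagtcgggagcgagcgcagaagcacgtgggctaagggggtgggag
Nrp2: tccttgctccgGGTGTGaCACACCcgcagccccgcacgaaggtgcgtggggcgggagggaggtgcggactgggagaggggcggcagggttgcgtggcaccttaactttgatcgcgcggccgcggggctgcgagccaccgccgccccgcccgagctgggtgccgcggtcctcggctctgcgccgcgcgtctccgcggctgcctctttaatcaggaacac
Sema3d holds AGGTGT once, Sema6d 2 times and Nrp2 holds GGTGTG at 2 places that face each other. A match is a run of letters, not a bound site, and binding was not measured here. The windows also differ in base composition: that of Sema3c is 78.4% G and C with 39 CpG dinucleotides and no match, that of Sema3a is 40.8% with 2 CpG, and the medians over all genes are 52.4% and 6.

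In WT hearts the 10 genes spanned a wide range of levels per length of gene model, which allows genes to be ranked. Nrp1 led with 7.69 ± 1.51 CPM per kb, followed by Sema3a with 5.80 ± 1.24 and Plxnd1 with 5.14 ± 0.780 (SD, n = 4). Over WT libraries Sema3a (4.93 to 7.63) overlapped both Nrp1 (6.42 to 9.86) and Plxnd1 (4.03 to 5.76 CPM per kb), while every Nrp1 value lay above every Plxnd1 value. A middle tier held Sema3d at 2.62 ± 0.431, Sema6d at 2.41 ± 0.889, Sema3c at 2.26 ± 0.306 and Plxna4 at 1.86 ± 0.670 CPM per kb, and these too overlapped each other. Plxna2 at 0.662 ± 0.327 and Nrp2 at 0.444 ± 0.0980 formed a lower pair, and Sema3e was lowest at 0.138 ± 0.0580 CPM per kb. No library of a tier reached the range of the tier above it.

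Within the whole family as annotated in the table, Sema3a, Sema3d, Sema6d and Sema3c were the 4 highest of 20 semaphorins in WT, and the next, Sema4d, stood at 0.620 ± 0.240 CPM per kb. Sema3e ranked 12 of the 20. Among 9 plexins, Plxnd1 ranked 1, Plxna4 ranked 3 and Plxna2 ranked 7, with Plxnb2 between the first and second of these at 3.86 ± 0.287 CPM per kb. Nrp1 exceeded Nrp2 per length in every library, by 14.6 to 18.9 times in del/CreERT2, 8.95 to 15.99 in del/+, 10.51 to 16.7 in CreERT2/+ and 15.6 to 19.4 in WT.

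**Figure D1:**
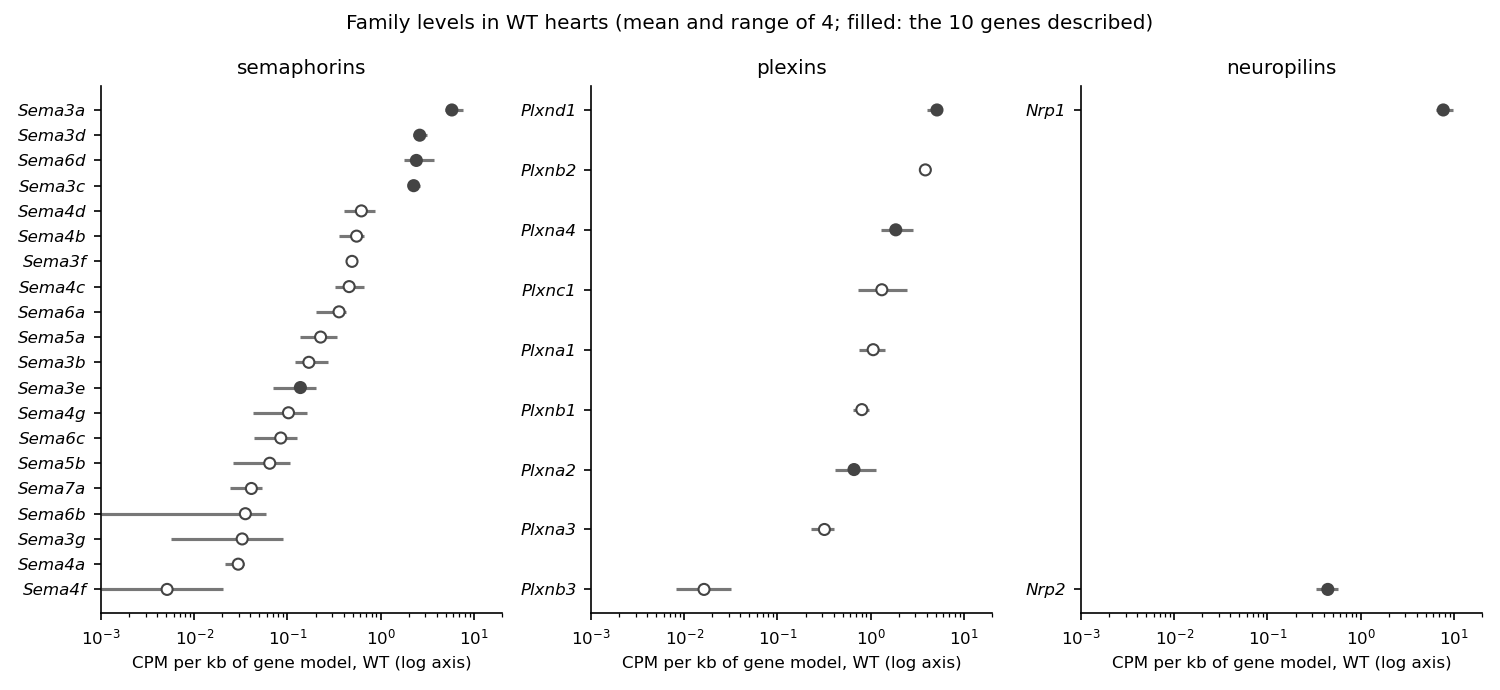
Level per length of gene model (CPM per kb, log axis) of 20 semaphorins, 9 plexins and 2 neuropilins in WT hearts; points are means and lines the range of 4 libraries, filled points are the 10 genes described, and lines that meet the left edge include a library at 0. Nrp1, Sema3a and Plxnd1 lie at 5.14 to 7.69 CPM per kb, and Sema3e at 0.138.

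The comparison of del/CreERT2 with WT asks what differs when both Tbx5 copies are altered. None of the 10 genes passed edgeR's quasi-likelihood test at a Benjamini-Hochberg adjusted p of 0.05, where 0.335% of all tested genes did. Before adjustment 1 of the 10, Sema3c, had a p under 0.05, beside 5.67% of all genes. In bulk tissue, fewer cells of a type and less RNA per cell cannot be told apart, and this holds for every level below.

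Sema3c (ENSMUSG00000028780, chr5:17080099-17236086 in mm9, plus strand) encodes the secreted ligand that draws cardiac neural crest into the mouse outflow tract. It had 9.26, 12.1, 10.3 and 9.37 CPM in the del/CreERT2 libraries and 14.9, 19.0, 16.6 and 14.0 CPM in the WT libraries. All 4 del/CreERT2 libraries lay below all 4 WT libraries. Sema3c was the only gene of the 10 whose groups did not overlap in this comparison, and 1.96% of all tested genes had del/CreERT2 wholly below WT in this way, with 2.31% wholly above. The heterozygotes had wider ranges, with 9.60, 16.4, 15.2 and 13.9 CPM in del/+, and 16.8, 16.5, 8.61 and 17.6 CPM in CreERT2/+. The low CreERT2/+ value, which is below all del/CreERT2 libraries, belongs to CreERT2/+ 3, the library with the least mitochondrial ribosomal RNA.

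The log2 fold change of Sema3c in del/CreERT2 against WT was -0.65 ± 0.23 (SE), a level 36.3% lower, with a 95% interval of the fold of 0.459 to 0.884. Its unadjusted p was 0.00930 and its adjusted p by edgeR's quasi-likelihood test 0.470, so it did not pass. With CreERT2/+ 3, del/CreERT2 3 and WT 4 left out the log2 change was -0.72, with the lowest adjusted p of any gene of the 10 under any alternative, 0.131. The authors' deposited table gives Sema3c a log2 change of -0.66 in the same direction, with an adjusted p of 0.825.

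Among the marker lists, only the sums for epicardium and for second heart field and outflow tract stood apart between these genotypes. The sums of all other lists overlapped. Summed epicardial markers (8 genes, Wt1 and Tbx18 among them) stood at 87.6, 72.9, 68.8 and 91.8 CPM in del/CreERT2 and at 111.2, 99.3, 124.3 and 96.6 CPM in WT, with 6 of 7 tested genes lower, a median log2 change of -0.56 and none past the adjusted test. Summed markers of the second heart field and outflow tract (6 genes, 3 of them tested) went the other way, at 22.9, 21.9, 19.7 and 18.1 CPM in del/CreERT2 and 16.4, 8.38, 14.4 and 12.7 CPM in WT. This sum is mostly Hand2, with 8584 counts over all libraries beside 365 for Fgf10, 346 for Isl1 and at most 56 for each of the rest. Neither pair of groups overlapped. Among single tested genes, 1.96% lay wholly lower and 2.31% wholly higher in del/CreERT2. In the heterozygotes the second heart field sum was 16.6 to 25.0 CPM in del/+, also wholly above WT, and 15.6 to 26.5 CPM in CreERT2/+. The del/+ comparison uses the same WT libraries, and the share of genes that separate in it was not counted. The epicardial sum was 83.3 to 100.3 CPM in del/+ and 96.3 to 117.2 CPM in CreERT2/+, overlapping WT in both. Neural crest, glial and neuronal markers summed to only 4.68 to 7.20 CPM in del/CreERT2 and 5.80 to 7.59 CPM in WT. The part of these cell types in the Sema3c values was not tested.

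Sema3d (ENSMUSG00000040254, chr5:12383166-12588943 in mm9, plus strand), a secreted semaphorin known in mouse for patterning the pulmonary veins, was at 10.4, 18.2, 10.499 and 12.8 CPM in del/CreERT2 and at 15.9, 21.5, 15.4 and 19.8 CPM in WT. Of the del/CreERT2 libraries, 3 lay below all WT libraries and del/CreERT2 2 lay among them. The log2 change was -0.49 ± 0.27, which did not pass (adjusted p = 0.972 by edgeR). The heterozygotes stood at 14.4, 32.3, 18.7 and 15.9 CPM in del/+ and at 22.8, 23.0, 11.1 and 17.0 CPM in CreERT2/+, so del/+ 2 was highest and CreERT2/+ 3 was again the low library of its genotype.

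Sema3a (ENSMUSG00000028883, chr5:13125593-13602565 in mm9, plus strand), which in mouse patterns the sympathetic nerves of the heart, had 43.2, 48.2, 39.0 and 55.4 CPM in del/CreERT2 and 54.0, 77.1, 49.8 and 53.4 CPM in WT. The groups overlapped, and WT 2 stood far above its fellows. The log2 change was -0.33 ± 0.21, and -0.18 without WT 2. In the heterozygotes Sema3a was at 39.9, 48.0, 57.0 and 55.6 CPM in del/+ and at 51.6, 61.1, 33.1 and 52.2 CPM in CreERT2/+.

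Sema6d (ENSMUSG00000027200, chr2:123915705-124493506 in mm9, plus strand), a membrane-anchored ligand that acts in ventricle formation in the chick heart, had 13.7, 18.6, 28.4 and 16.3 CPM in del/CreERT2 and 19.1, 19.0, 24.8 and 38.9 CPM in WT. In both genotypes the highest value was that of the library low in mitochondrial ribosomal RNA, and the other 3 del/CreERT2 libraries lay below every WT library. Its log2 change was -0.40 ± 0.29 with all libraries, -0.12 without WT 4 and -0.67 without del/CreERT2 3, and no value passed. Sema6d stood at 25.7, 27.7, 17.1 and 21.5 CPM in del/+ and at 25.7, 22.1, 45.2 and 17.8 CPM in CreERT2/+.

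Sema3e (ENSMUSG00000063531, chr5:14025276-14256689 in mm9, plus strand), which binds Plxnd1 without a neuropilin, was the only ligand with a positive log2 change. It rests on few reads: 26, 47, 111 and 32 counts in del/CreERT2, against 30, 60, 46 and 20 counts in WT. As CPM these are 1.27, 1.58, 1.91 and 0.842 in del/CreERT2 and 0.874, 1.54, 1.23 and 0.526 in WT, which overlap. The log2 change of 0.43 ± 0.40 was 0.00685 with CreERT2/+ 3, del/CreERT2 3 and WT 4 left out, 0.21 without WT 4 or without del/CreERT2 3, and 0.68 without WT 2. In the heterozygotes it ranged from 0.902 to 1.18 CPM in del/+ and from 0.717 to 2.00 CPM in CreERT2/+.

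**Figure D2:**
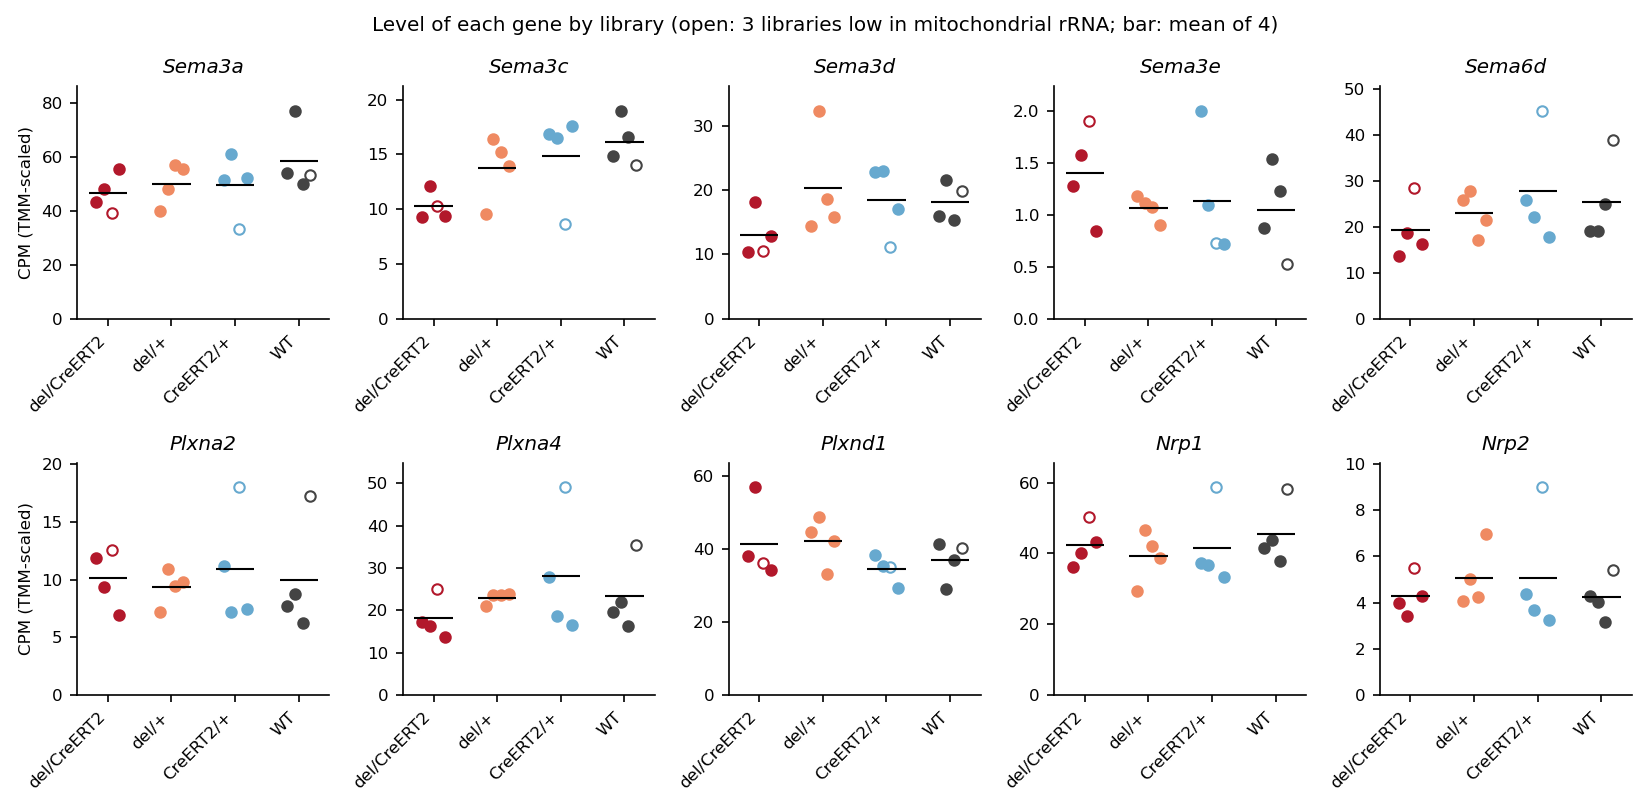
Level (CPM, linear axes from 0) of each of the 10 genes in 16 libraries by genotype; points are libraries, bars the mean of 4, and open points the 3 libraries low in mitochondrial ribosomal RNA. Sema3c in del/CreERT2 lies at 9.26 to 12.1 CPM, below all WT libraries, while open points top their genotype for Sema6d, Plxna2, Plxna4, Nrp1 and Nrp2.

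Among the plexins, Plxna4 (ENSMUSG00000029765, chr6:32094565-32538192 in mm9, minus strand), a partner of Nrp1 in the response to Sema3a, had 17.2, 16.4, 25.0 and 13.8 CPM in del/CreERT2 and 19.7, 22.0, 16.3 and 35.5 CPM in WT. The groups overlapped, with del/CreERT2 3 and WT 4 highest in each. The log2 change was -0.37 ± 0.29 with all libraries, -0.10 without WT 4 and -0.59 without del/CreERT2 3. A gene on the other strand whose span overlaps, 9430029A11Rik, held 878 counts over all libraries, or 6.96% of those of Plxna4. Counting by strand is not stated, and whether exons of the pair share bases was not checked.

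Plxnd1 (ENSMUSG00000030123, chr6:115904829-115945023 in mm9, minus strand), the endothelial plexin required for the mouse outflow tract, stood at 38.1, 56.9, 36.1 and 34.2 CPM in del/CreERT2 and at 41.4, 29.0, 37.1 and 40.3 CPM in WT. Only del/CreERT2 2 lay above the WT range. The log2 change was 0.16 ± 0.20, with -0.04 without that library, 0.06 without WT 2 and 0.26 when CreERT2/+ 3, del/CreERT2 3 and WT 4 are all left out. The endocardial and endothelial markers, the cells in which Plxnd1 is known to act, summed to 187.1 to 202.9 CPM in del/CreERT2 and 182.4 to 239.6 CPM in WT.

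Plxna2 (ENSMUSG00000026640, chr1:196446023-196643063 in mm9, plus strand), a plexin of mouse cardiac neural crest, was at 11.9, 9.35, 12.6 and 6.92 CPM in del/CreERT2 and at 7.69, 8.77, 6.27 and 17.2 CPM in WT. WT 4 alone lay outside the del/CreERT2 range on the high side, and WT 3 alone on the low side. The log2 change of 0.03 ± 0.31 had a sign that turned when single libraries were left out, and its 95% interval of the fold ran from 0.651 to 1.59.

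Both neuropilins overlapped between the genotypes. Nrp1 (ENSMUSG00000025810, chr8:130882973-131029362 in mm9, plus strand), the main neuropilin of Sema3a and a VEGF co-receptor, had 36.1, 40.3, 50.4 and 43.1 CPM in del/CreERT2 and 41.6, 43.9, 37.9 and 58.2 CPM in WT. Nrp2 (ENSMUSG00000025969, chr1:62749859-62865269 in mm9, plus strand), which also binds VEGF-C in lymphatic vessels, had 3.97, 3.43, 5.50 and 4.26 CPM in del/CreERT2 and 4.28, 4.04, 3.15 and 5.41 CPM in WT. The highest library of each gene in each of these genotypes was again del/CreERT2 3 or WT 4. Their log2 changes were -0.10 ± 0.21 and 0.03 ± 0.29, with 95% intervals of the fold of 0.688 to 1.27 and 0.668 to 1.56.

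Over the 10 genes the median log2 change in del/CreERT2 against WT was -0.22, beside -0.00318 over all tested genes, with 4 genes above 0 and 6 below. By role, 4 of 5 ligands, 1 of 3 plexins and 1 of 2 neuropilins were below 0. The 95% interval lay within a 2-fold change either way for 6 of the 10 and within a 4-fold change for all 10. A change of more than 2-fold was thus not excluded by its interval for Sema3c, Sema3d, Sema3e and Sema6d. The 4 class 3 ligands lie together within 4.85 Mb of chromosome 5 (12383166 to 17236086 in mm9), 103.05 Mb from Tbx5 on the same chromosome.

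**Figure D3:**
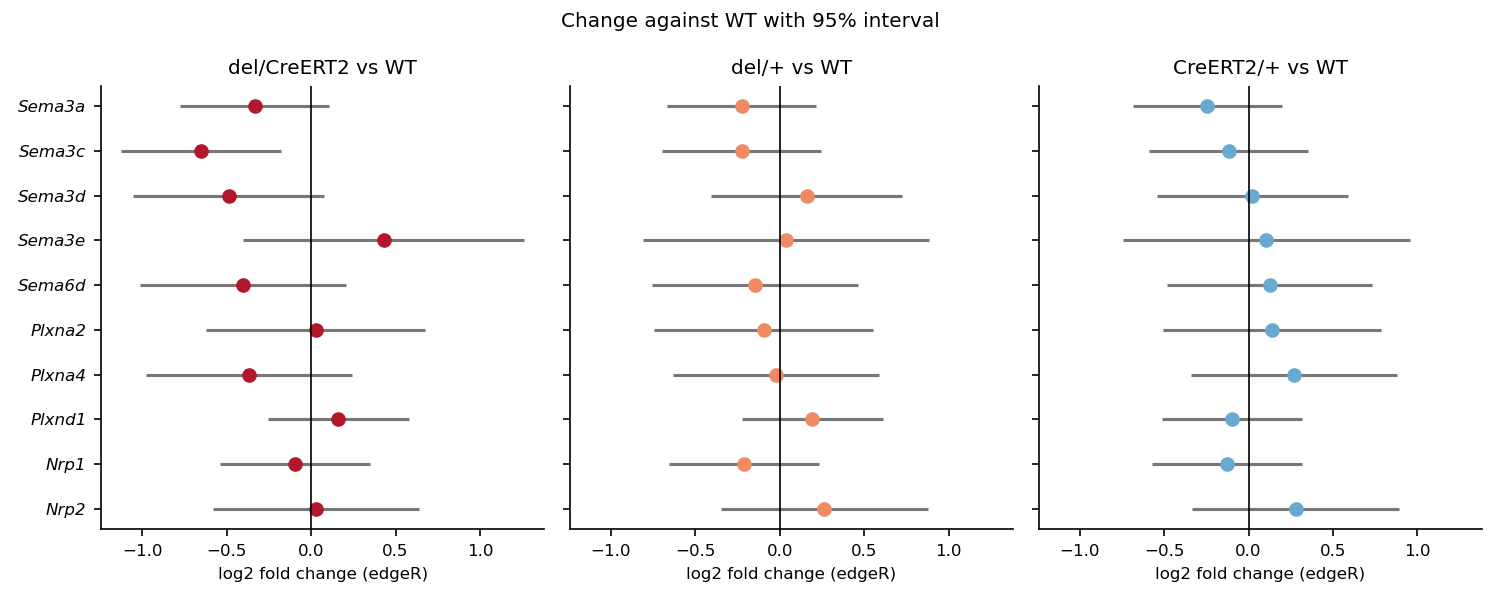
Log2 fold change against WT (edgeR) of each of the 10 genes in del/CreERT2, del/+ and CreERT2/+, with 95% intervals before adjustment for many genes. Only the interval of Sema3c in del/CreERT2, centred on -0.65, leaves out 0, and none passes the adjusted test.

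In hearts with a single altered copy none of the 10 genes passed in del/+ against WT, where 0.116% of tested genes did, or in CreERT2/+ against WT, where 0.0342% did. None had a p under 0.05 before adjustment, beside 5.81% and 3.71% of all genes. The log2 changes ran from -0.23 to 0.26 in del/+ and from -0.24 to 0.28 in CreERT2/+, and all 10 intervals lay within a 2-fold change in each. Sema3a had the lowest p in both comparisons, which share the WT libraries, with log2 changes of -0.22 ± 0.21 in del/+ and -0.24 ± 0.21 in CreERT2/+, and without WT 2 these were -0.06 and -0.09. Leaving out del/+ 1 gave -0.13 in del/+, and in CreERT2/+ the value was -0.09 without CreERT2/+ 3 and -0.37 without CreERT2/+ 2. For Sema3c the values were -0.23 ± 0.23 in del/+ and -0.12 ± 0.23 in CreERT2/+, neither of them past the test. The del/+ value was -0.09 without del/+ 1 and -0.14 without WT 2, and the CreERT2/+ value ranged from -0.21 without CreERT2/+ 4 to 0.08 without CreERT2/+ 3.

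The comparisons of del/CreERT2 with each heterozygote ask what the second altered copy adds. None of the 10 passed against del/+, where 0.0205% of tested genes did, and Sema3d alone had a p under 0.05 before adjustment, beside 5.08% of all genes. Its log2 change was -0.65 ± 0.27 (adjusted p = 0.918 by edgeR), and -0.34 without del/+ 2, the highest Sema3d library. None passed against CreERT2/+, where 0.0753% did, and Sema3c and Plxna4 had a p under 0.05 before adjustment, beside 3.97% of all genes.

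For Sema3c the log2 change in del/CreERT2 against CreERT2/+ was -0.53 ± 0.23 (adjusted p = 0.999 by edgeR), and -0.73 without CreERT2/+ 3. For Plxna4 it was -0.63 ± 0.30 (adjusted p = 0.999 by edgeR), but -0.22 without the same library, in which Plxna4 stood at 49.0 CPM, against 16.6 to 27.8 CPM in the other 3 CreERT2/+ libraries. So CreERT2/+ 3 pulls the values of these genes in opposite directions.

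Between the heterozygotes none of the 10 passed in CreERT2/+ against del/+. By edgeR's quasi-likelihood test 0 of all tested genes did (0%), with 610 genes (4.17%) and none of the 10 at p under 0.05 before adjustment. Plxnd1 had the lowest p of the 10, at 29.2 to 38.5 CPM in CreERT2/+ and 33.2 to 48.9 CPM in del/+, with a log2 change of -0.29 ± 0.20 (adjusted p = 0.997 by edgeR). All 10 intervals lay within a 2-fold change. The interaction asks whether both alterations together differ from the sum of each alone, and none of the 10 passed, where 0.0411% of tested genes did, or had a p under 0.05 before adjustment, beside 4.34%. Sema3d had the lowest p there, with a log2 difference of -0.67 ± 0.39 (adjusted p = 0.996 by edgeR), and -0.36 without del/+ 2.

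A further pattern across libraries ran within genotypes. Sema6d, Plxna2, Plxna4, Nrp1 and Nrp2 were each highest, among the 4 libraries of a genotype, in del/CreERT2 3, in CreERT2/+ 3 and in WT 4, the 3 libraries with the least mitochondrial ribosomal RNA. These libraries also stood apart over all tested genes. On the first principal component, the axis of greatest variation (20.2% of it), WT 4 was at 56.2, CreERT2/+ 3 at 82.0 and del/CreERT2 3 at 36.0. The other 13 were at 1.42 or below. How many of all tested genes top their genotype in the same libraries was not counted. The pattern is thus not shown to be particular to these genes. Plxna4 stood at 1.52 times the median of the other 3 libraries in del/CreERT2 3, 2.62 times in CreERT2/+ 3 and 1.81 times in WT 4. For Sema6d the ratios were 1.74 in del/CreERT2 3, 2.04 in CreERT2/+ 3 and 2.04 in WT 4. Nrp1 stood at 1.25 times in del/CreERT2 3, 1.60 times in CreERT2/+ 3 and 1.40 times in WT 4, and Nrp2 at 1.39, 2.44 and 1.34 times in the same libraries. The next library by this share, del/CreERT2 4 at 62.3%, topped its genotype for none of these genes. It was lowest for Plxna4 (13.8 CPM, the others 16.4 to 25.0) and for Plxna2 (6.92 CPM, the others 9.35 to 12.6). For Sema6d it had 16.3 CPM, beside 13.7, 18.6 and 28.4 CPM in the others. For Nrp1 it had 43.1 CPM, beside 36.1, 40.3 and 50.4 CPM, and for Nrp2 4.26 CPM, beside 3.97, 3.43 and 5.50 CPM.

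The class 3 ligands showed no such common direction. Sema3a, Sema3c and Sema3d were each lowest of their genotype in CreERT2/+ 3, at 0.635, 0.511 and 0.486 times the median of the other 3 libraries. In del/CreERT2 3 they stood at 0.810, 1.10 and 0.821 times, and in WT 4 at 0.988, 0.845 and 1.25 times. Sema3e was highest of its genotype in del/CreERT2 3, at 1.497 times, and lowest in WT 4, at 0.428 times. Plxnd1 was neither highest nor lowest in any, at 0.948 times the median in del/CreERT2 3, 0.988 times in CreERT2/+ 3 and 1.09 times in WT 4. Summed red cell markers were lowest of their genotype in CreERT2/+ 3 (1530 CPM, the others 4540 to 5063) and in WT 4 (1499 CPM, the others 3777 to 6300), but not in del/CreERT2 3 (2968 CPM), where del/CreERT2 4 was lower at 2760 CPM. These 3 libraries were singled out from the counts and are not a group of the study, so no test was made, and the part of RNA quality or tissue make-up was not tested.

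**Figure D4:**
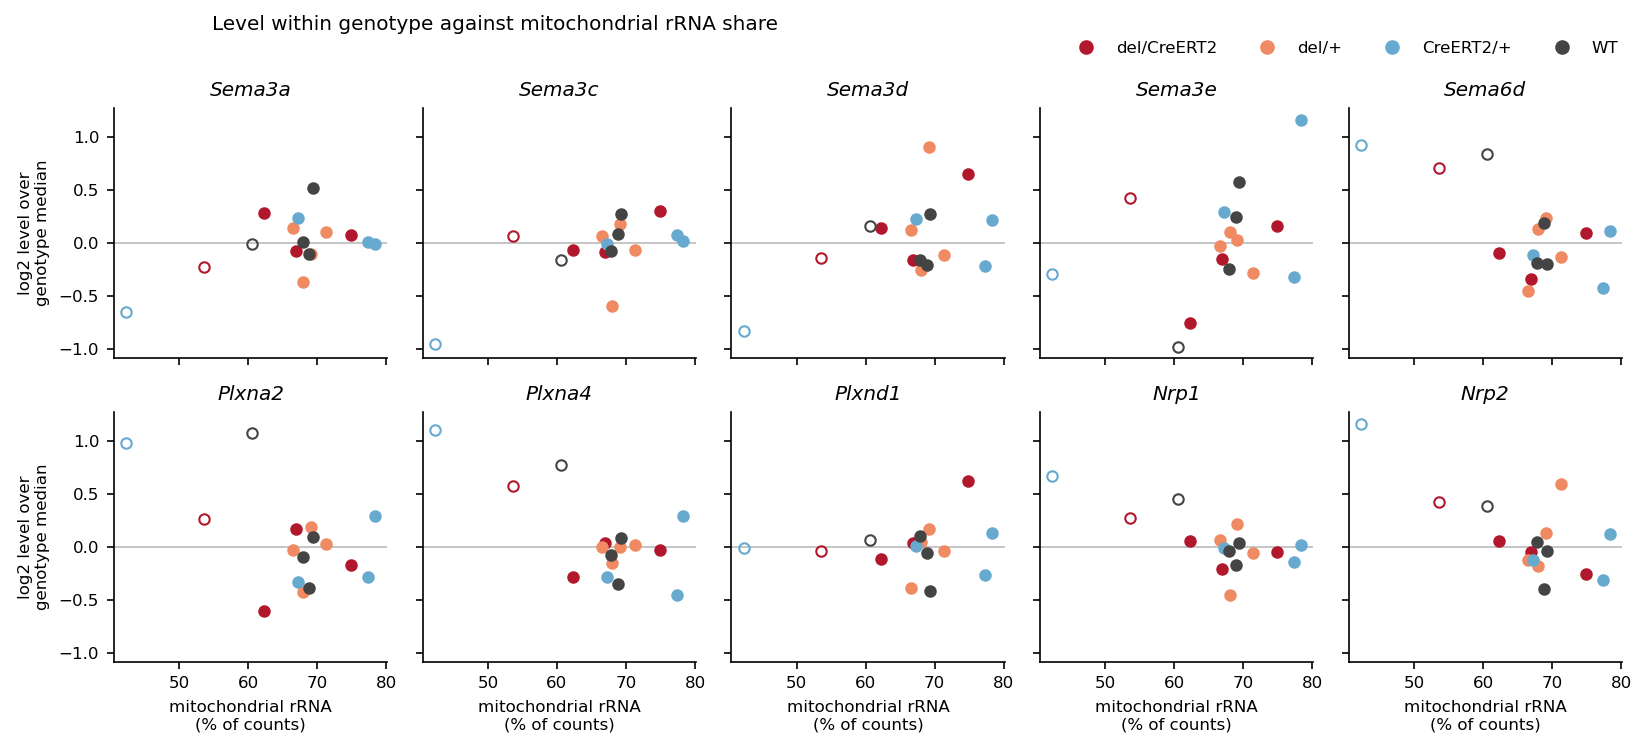
Log2 level of each of the 10 genes over the median of its genotype, against the share of counts that is mitochondrial ribosomal RNA (percent); points are the 16 libraries coloured by genotype, and open points are del/CreERT2 3, CreERT2/+ 3 and WT 4. Plxna2, Plxna4, Sema6d, Nrp1 and Nrp2 lie above 0 in all 3 open points, and Sema3a, Sema3c and Sema3d lie low at 42.3%.

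Correlations between genes over the 16 libraries, which share depth and this ribosomal share, are given as descriptions. Genotype means were not taken out, so differences between genotypes enter these values. The highest Pearson r of log2 CPM were 0.84 for Plxna2 with Plxna4 and 0.83 for Sema6d with Plxna4, and over the other 13 libraries these were 0.56 and 0.51. Sema3c with Sema3d gave 0.79 over 16 and 0.72 over 13, so this pair leaned less on the 3 libraries. Likeness was ranked over tested genes with a symbol, leaving out the other members and predicted genes (Gm or Rik names). Those most like Sema3c were Gpr22, a G protein-coupled receptor (r = 0.90 over 16 and 0.91 over 13), Gcnt1, a glycosyltransferase (0.89 and 0.92), and Capn6, of the calpain family (0.85 and 0.82).

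Plxna4 was most like Heg1, a membrane protein of endocardium (0.98 over 16 libraries and 0.95 over 13), Tnrc6b, of the RNA silencing machinery (0.97 and 0.93), and Scd2, a fatty acid desaturase (0.95 and 0.86). Nrp1 was most like Macf1, a cytoskeletal linker (0.93 and 0.88), Acbd3, a Golgi protein (0.91 and 0.72), and Gcfc1 (0.90 and 0.73). Each of these was picked as the highest over all 14612 tested genes.

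The other genes of the pathway gave no call in any of the 7 contrasts: 13 tested semaphorins of 15 others, 5 plexins of 6 others, 6 of 9 co-receptors, 8 of 8 VEGF ligands and receptors that use neuropilins, and 24 of 24 genes acting inside the cell after plexins. In del/CreERT2 against WT, 8 of the 13 other semaphorins were above 0 with a median log2 change of 0.22, and for the other 5 plexins the median was 0.000453. Of 25 table entries for the genes acting inside the cell (Mical3 has 2), 9 were above 0 and 16 below, with a median of -0.03. The other semaphorins leaned the same way in the heterozygotes against WT. Their median was 0.30 in del/+ with 9 above 0, and 0.22 in CreERT2/+ with 11 above 0. These comparisons share the WT libraries. In del/CreERT2 against del/+ the median was -0.14, with 6 above 0 and 7 below. Against CreERT2/+ it was -0.05, also with 6 above 0 and 7 below. Sema6b, a membrane-anchored semaphorin, had the lowest p among these lists in del/CreERT2 against WT. It had 17, 9, 34 and 23 counts in del/CreERT2, against 5, 7, 0 and 9 in WT.

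The Sema6b groups did not overlap as CPM, at 0.303 to 0.833 in del/CreERT2 and 0 to 0.237 in WT. Of all tested genes, 2.31% lay wholly higher in this way. The log2 change of 2.01 ± 0.69 did not pass (adjusted p = 0.447 by edgeR). CreERT2/+ also lay wholly above WT for Sema6b, at 0.308 to 0.425 CPM, while del/+ overlapped WT at 0.0762 to 0.416 CPM. The share of all tested genes wholly above WT in CreERT2/+ was not counted, and these comparisons share the WT libraries. L1cam, an adhesion molecule that joins neuropilin complexes, had 21, 16, 20 and 5 counts in del/CreERT2, against 5, 5, 4 and 8 in WT, with a log2 change of 1.71 ± 0.63 (adjusted p = 0.531 by edgeR). Its log2 change against WT was 1.51 ± 0.63 in CreERT2/+ and 0.92 ± 0.65 in del/+. As CPM L1cam was at 0.132 to 1.03 in del/CreERT2 and 0.173 to 0.519 in del/+, both overlapping the 0.107 to 0.210 in WT. Only CreERT2/+, at 0.256 to 0.539 CPM, lay wholly above WT. Figf, which encodes VEGF-D, had a log2 change of 1.95 ± 0.89 on 2 to 40 counts in del/CreERT2 and 0 to 10 in WT, and one of 1.118 without del/CreERT2 2. Rras, a small GTPase switched off by plexins, was at 12.4, 12.1, 6.77 and 10.6 CPM in del/CreERT2 and 8.30, 7.30, 8.84 and 4.97 CPM in WT, with a log2 change of 0.50 ± 0.28, and Plxna3 had one of 0.24 ± 0.33 (0.11 without WT 2 and 0.38 without WT 3). None of these passed.

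Among the marker genes of other cell types, Myh11, a smooth muscle myosin, rose in del/CreERT2. It was at 3.14, 2.39, 5.95 and 3.21 CPM in del/CreERT2 and 0.845, 1.00, 0.480 and 1.66 CPM in WT, with a log2 change of 1.88 ± 0.38 (adjusted p = 0.0277 by edgeR). The call was lost without WT 1, 2 or 3 or without del/CreERT2 1, 3 or 4, with adjusted p of 0.0506 to 0.141 by edgeR. Its groups did not overlap, as for the 2.31% of tested genes that lay wholly higher in del/CreERT2. The summed level of the 4 smooth muscle markers, at 614.3 to 965.5 CPM in del/CreERT2 and 413.9 to 946.8 CPM in WT, did overlap.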

How the data were processed

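RNA of mouse embryonic hearts was sequenced in 16 libraries of 4 genotypes, 4 each, grouped by the genotype in the labels. Qiazol and the miRNeasy micro kit served for extraction, and the Ovation RNA-seq system V2 for amplification, per the labels' protocols. The submitters' processing notes name TopHat2, featureCounts and edgeR and the build mm9. Versions, filters and strand settings are not given in the sources used for these values.

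The authors deposited 1 table of raw, whole-number counts per gene, used as they stand. No column is an expected count estimated by a model, and none was rounded, though the deposited columns are recorded here under the unit of expected counts because of how their headers are written. The authors' deposited table also gives log2 fold changes, p-values and adjusted p-values, with the sign turned here to the altered genotype over its control, and these are printed only where that table is named. In addition, 52 per-sample columns were left unused. Genes without a symbol (415) took at most 0.117% of a library.

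Counts were tested with edgeR 4.0.16 (R 4.3.3) by a quasi-likelihood model over all 16 libraries with 1 mean per genotype, TMM scaling and the default low-count filter, which kept 14612 genes. The 6 pairs of genotypes and the interaction (del/CreERT2 minus del/+ minus CreERT2/+ plus WT) were tested. Adjusted p-values are Benjamini-Hochberg over all tested genes, threshold 0.05, errors are SE for log2 changes and SD for CPM, and intervals are 95%. The script was tested on simulated data. Counts outside mitochondrial ribosomal RNA ran from 6611755 to 16796193 a library. Libraries of a genotype differed by more than sampling noise in all 24 pairs (chi-square over degrees of freedom, 25.4 to 697.0). The replicate numbers showed no sign of pairing the libraries, though a pairing is not excluded. Alternatives were other size factors, other filters, DESeq2 1.42.0, limma-voom (limma 3.58.1), fewer libraries, a replicate block and a ribosomal share covariate.

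The members and lists were chosen with earlier results of these data known. All 10 members are named. From each family or pathway list the genes past the threshold are named, or else the 1 with the lowest p in del/CreERT2 against WT, and from marker lists those past the threshold. The 3 genes most like a member are given for the member of each role with the lowest p in that comparison, Sema3c, Plxna4 and Nrp1. Other members, predicted genes and genes without a symbol were left out of that ranking. Exons of the GENCODE annotation for GRCm38 limited which promoter bases are shown. Windows that start within an exon are not shown.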

Additional observations from a re-analysis of the deposited data

Results flagged for a closer look

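In each genotype the highest or lowest of the 4 libraries was set against the range of the group for each of the 10 genes, 40 groups in all, and 5 stood apart by Dixon's criterion. Chance marks about 1 in 20 groups. Sema3a was at 77.1 CPM in WT 2, beside 49.8 to 54.0 CPM in the other WT libraries. Sema3c was at 8.61 CPM in CreERT2/+ 3, beside 16.5 to 17.6 CPM in the other CreERT2/+ libraries, and Nrp1 in the same library was at 58.6 CPM, beside 33.5 to 37.2 CPM. Plxnd1 was at 56.9 CPM in del/CreERT2 2, beside 34.2 to 38.1 CPM in the other del/CreERT2 libraries. Plxna4 was at 21.1 CPM in del/+ 1, beside 23.5 to 23.8 CPM in the other del/+ libraries, a small gap in a tight group. Of the 5, 2 fall in CreERT2/+ 3, whose mitochondrial ribosomal RNA share of 42.3% is the lowest, and no explanation was tested.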

How the results depend on the processing

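None of the 10 genes was called in any of the 7 contrasts in any of 1803 fits of a gene under 26 alternatives, and the lowest adjusted p was 0.131. Sema3e was not tested with the filter at a mean CPM of 5. In del/CreERT2 against WT the log2 change of Sema3a, Sema3c, Sema3d, Sema3e, Sema6d and Plxna4 kept its sign in every alternative (Sema3c between -0.74 and -0.57). Signs of values near 0 turned. With the ribosomal share as a covariate Plxna2 was at -0.00599 and Nrp2 at -0.0601, and without the 3 libraries low in it Sema3c in CreERT2/+ against WT was at 0.00599. Leaving out single libraries gave -0.14 to 0.42 for Plxna2, -0.0362 to 0.24 for Plxnd1, -0.21 to 0.0435 for Nrp1 and -0.14 to 0.17 for Nrp2 in del/CreERT2 against WT, and -0.21 to 0.0769 for Sema3c in CreERT2/+ against WT. The number of genes whose del/CreERT2 and WT libraries do not overlap was 1, and 2 without those 3 libraries or without del/CreERT2 2, 3 or 4, since fewer libraries overlap less. The replicate numbers were checked for pairing: same-numbered libraries deviated together with correlations of -0.325 to 0.487, with 3 of 24 above 0.1. Differently numbered libraries gave -0.343 to 0.481, with 10 of 72 above 0.1. The highest value of each kind was between libraries low in mitochondrial ribosomal RNA, so a weaker pairing could be hidden. With a replicate block 0 of the 10 were called in each contrast, and Nrp2 in del/CreERT2 against WT was at -0.00638. For Myh11 and the other genes named outside the 10, alternatives were added after seeing the data, and the log2 change of Myh11 ranged from 1.52 to 2.24. Depth limits Sema3e most, with 14 to 111 counts a library.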
